A study of Mus musculus with 16 samples.

Results

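The unfolded protein response genes followed here were 10 of the 19938 genes measured in mouse dendritic cell (DC) progenitors: the stress sensors Ern1, Eif2ak3 and Atf6, the transcription factors Xbp1, Atf4 and Ddit3, the chaperones Hspa5 and Hsp90b1, and Dnajb9 and Herpud1. They were chosen by name, with earlier results of these data known. Each was read from the 1 probe set of the array that is assigned to it alone, so all 10 were measured. The 16 arrays came from 8 groups of 2, made of monocyte and dendritic progenitors (MDPs) or the common dendritic progenitors (CDPs) that develop from them, of IkL/L or WT genotype, with GSI or DMSO. IkL/L mice carry a hypomorphic allele of Ikzf1, the gene of the zinc finger protein Ikaros, and the animals were 6 to 9 weeks old. GSI was the γ-secretase inhibitor Compound E at 5 uM, which blocks the enzyme complex known for cutting Notch receptors in the membrane, and DMSO was its vehicle. All groups shared the same handling: CD45.2+ progenitors were cultured for 24 h with unfractionated CD45.1+ bone marrow cells and Flt3L, and the CD45.2+ cells were then sorted again. The arrays therefore describe whatever the CD45.2+ progenitors had become after 24 h, in the presence of supporting cells that met the same inhibitor. The labels number 2 replicates a group without saying that they came from separate animals, although the study's legend gives 2 mice per condition, and the p-values measure the spread between these samples.

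The endoplasmic reticulum (ER) folds secreted and membrane proteins, and the unfolded protein response is the program by which a cell enlarges that capacity when unfolded protein accumulates. Hspa5 (BiP), the main ER chaperone of the HSP70 family, holds 3 sensors inactive. Ern1 encodes IRE1α, which splices Xbp1 mRNA to yield an active transcription factor, Eif2ak3 encodes PERK, which slows translation and favours that of Atf4, and Atf6 encodes a factor that is cut from its membrane anchor by Golgi proteases. Atf4 activates genes of amino acid supply and Ddit3 (CHOP), while Xbp1 and cleaved Atf6 activate chaperones and components of ER-associated degradation. The IRE1α and XBP1 branch is known for its need in the development and survival of DCs. A probe set reports the amount of mRNA, and neither the splicing of Xbp1, the translation of Atf4 nor the cleavage of Atf6 was measured.

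The promoter stretches that hold known response elements of the pathway are shown first, for the members that carry one and for a pair of pathway genes that rose with GSI. The RefSeq promoters (build GRCm38.p6, 250 bases before to 50 after the start) were searched on both strands for the ER stress response element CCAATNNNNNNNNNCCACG, for the ER stress response element II (ATTGG and CCACG with any 1 base between them), and for the amino acid response element TGATGNAA bound by ATF4. A promoter was found for 9 of the 10 genes, all but Atf6. Capitals mark the matches, and each sequence is written 5′ to 3′ on the strand of its gene.
Hspa5, chr2:34772005-34772063, plus strand: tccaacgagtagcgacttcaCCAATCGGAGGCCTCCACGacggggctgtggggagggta
Hsp90b1, chr10:86705513-86705676, minus strand: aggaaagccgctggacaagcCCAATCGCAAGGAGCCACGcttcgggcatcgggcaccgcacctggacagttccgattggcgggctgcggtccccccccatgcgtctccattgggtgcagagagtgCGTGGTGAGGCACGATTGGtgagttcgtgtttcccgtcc
Herpud1, chr8:94386357-94386407, plus strand: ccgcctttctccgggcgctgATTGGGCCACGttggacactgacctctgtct
Dnajc3, chr14:118937807-118937865, plus strand: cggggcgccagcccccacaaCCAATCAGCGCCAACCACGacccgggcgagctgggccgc
Chac1, chr2:119351029-119351076, plus strand: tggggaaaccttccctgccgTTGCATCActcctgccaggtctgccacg

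The ER stress response element was found in 2 of the 9 promoters, Hspa5 and Hsp90b1, where Hsp90b1 held 2 copies, and in 37 of the 27025 genes of the promoter table (0.137%). Among 17 promoters of other ER chaperones and folding enzymes it was found in 6 (35.3%), and Dnajc3, a co-chaperone of BiP, is shown as one of them. The ER stress response element II was found in Herpud1, against 12 genes of the table (0.0444%). The amino acid response element was found in Herpud1 as well, and in 10 of 21 promoters of ATF4 and CHOP target genes (47.6%), Chac1 among them, against 1219 genes of the table (4.51%). No match of 1 element overlapped a match of another in the promoters of the 10 genes. Among the pathway genes called with GSI below, Pdia5, P4hb, Manf and Selenos gave no match of any of these elements. A promoter was found for 17 of 20 chaperones and 16 of 20 genes of ER-associated degradation. A gene without a promoter would also give no match. A match describes the letters only, and binding of a factor was not measured.

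Over all genes, the Pearson correlations between replicates were 0.983 to 0.996. Ikzf1 itself had a log2 signal of 8.58 to 8.94 on the 4 IkL/L CDP arrays, against 8.90 to 9.15 on the 4 WT CDP arrays (-0.30, SE 0.12, adjusted p = 0.133), and of 8.36 to 8.85 on IkL/L MDP arrays, against 8.97 to 9.20 on WT MDP arrays (-0.50, SE 0.12, adjusted p = 0.0545). It thus did not pass the test at either stage, in an allele that lowers the amount of functional protein. Adjusted p-values here and below are from limma over all 19938 genes, with 0.05 as the threshold, and differences are on the log2 scale.

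The first question was whether GSI changed the expression of the unfolded protein response genes in each of the 4 populations. No member passed the test in any of them, nor in the mean of the 4. Few genes of any kind passed, 1 in IkL/L CDPs (0.00502% of those tested), 2 in WT CDPs (0.01%), 0 in IkL/L MDPs (0%), 0 in WT MDPs (0%) and 61 in the mean of the 4 (0.306%), while 697, 818, 522, 1350 and 2279 genes had an unadjusted p under 0.05 in these comparisons. The 61 became 0 without replicate 2 of the IkL/L CDP DMSO arrays. In the mean of the 4 populations 6 members had a positive difference and 1, Ern1, a negative one at an unadjusted p under 0.05. With 2 arrays a group, an exact permutation test within 1 population cannot go below p = 0.333.

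The direction was the same in all 4 populations for every member, but some of the differences were far smaller than their SE. Examples were Atf6 in IkL/L MDPs (0.01, SE 0.15) and Dnajb9 in WT MDPs (0.03, SE 0.15). In 9 of the 10 the mean of the GSI arrays lay above that of the DMSO arrays in all 4 populations, a pattern found in 17.1% of all genes. Ern1 had the opposite pattern, with GSI below DMSO in all 4, as had 12% of all genes. The GSI arrays lay above the DMSO arrays with no overlap for 6 of 10 members in IkL/L CDPs (19.4% of all genes), for 4 in WT CDPs (15.5%), for 3 in IkL/L MDPs (18.3%) and for 5 in WT MDPs (19%). By mean signal the 10 members lay between percentiles 71.5 and 99.4 of all genes. Shares and medians over all genes thus include many dimmer genes. The median difference over the 10 members was 0.20 in IkL/L CDPs, 0.17 in WT CDPs, 0.14 in IkL/L MDPs and 0.23 in WT MDPs, beside a median over all genes of 0.01 to 0.02. These medians moved with single arrays: the median was -0.01 in IkL/L MDPs without replicate 1 of their DMSO arrays and 0.26 without replicate 2, 0.09 in WT MDPs without replicate 1 of their DMSO arrays, and 0.31 in IkL/L CDPs without replicate 2 of their DMSO arrays. In sorted cells measured in bulk, fewer cells of a type and less RNA per cell cannot be told apart.

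**Figure D1:**
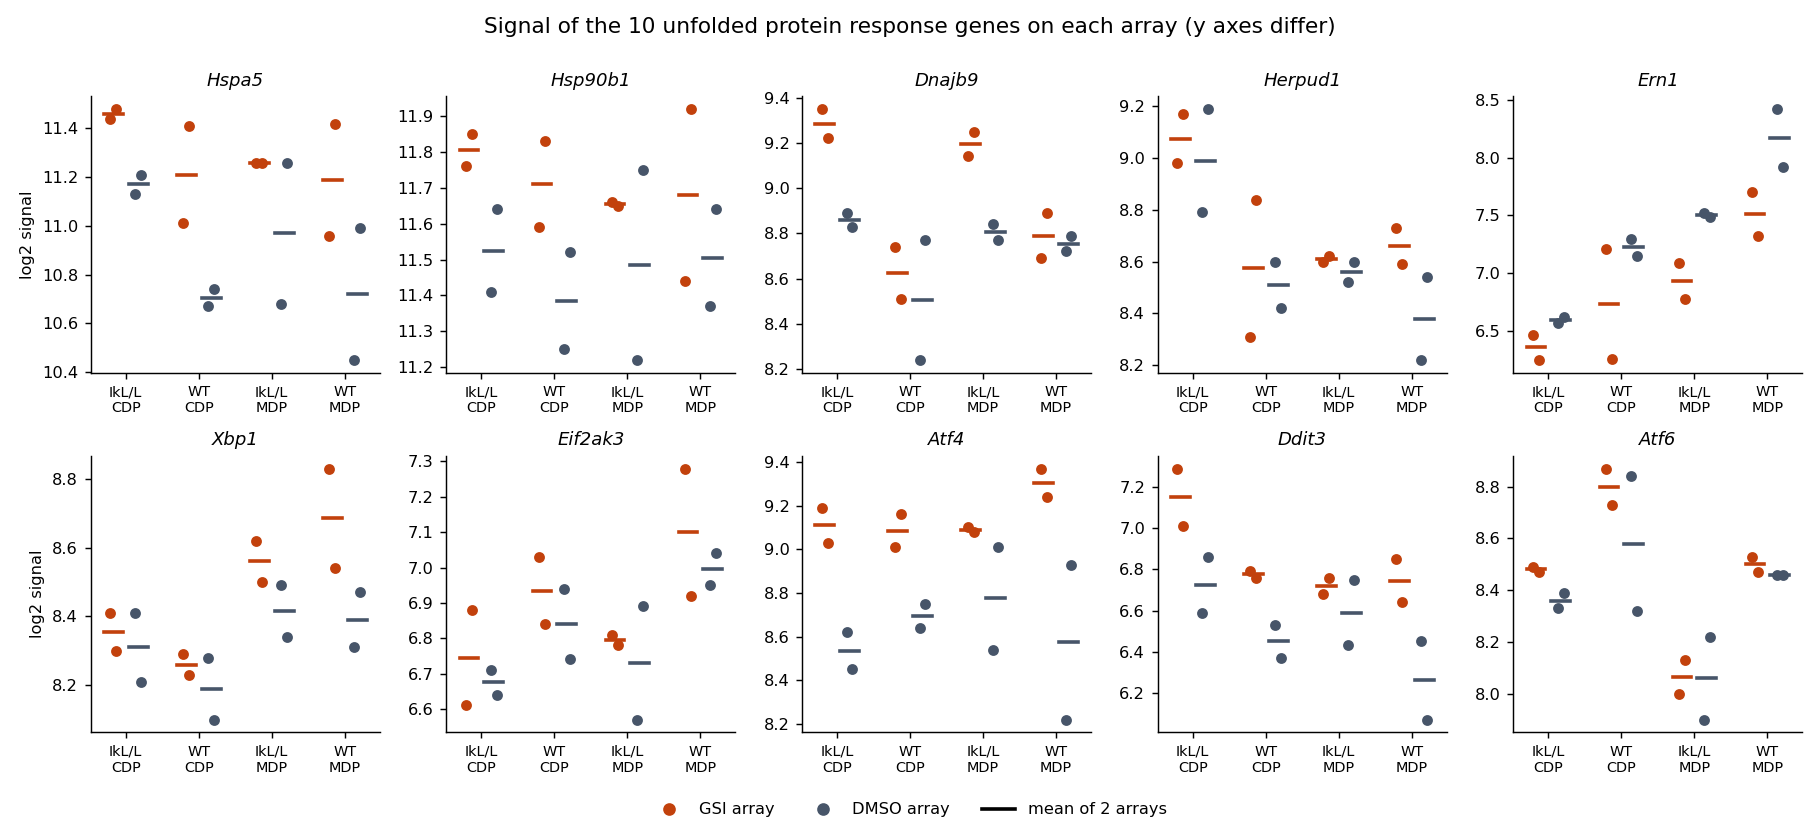
Log2 signal of each of the 10 unfolded protein response genes (y axis, own range per gene) on the 2 GSI arrays and 2 DMSO arrays of each population (x axis), with short lines for the mean of 2 arrays. Atf4 lies higher with GSI than with DMSO in all 4 populations without overlap, and Ern1 has its lower mean with GSI in each population.

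Atf4, the transcription factor of the PERK branch, had the largest positive difference with GSI among the 10. Its log2 signal was 9.19 and 9.03 on the GSI arrays of IkL/L CDPs, against 8.62 and 8.45 on the DMSO arrays. In WT CDPs it was 9.01 and 9.16 with GSI, against 8.64 and 8.75 with DMSO. In IkL/L MDPs it was 9.10 and 9.08 with GSI, against 8.54 and 9.01 with DMSO, and in WT MDPs 9.37 and 9.24 with GSI, against 8.22 and 8.93 with DMSO. All GSI arrays of a population thus lay above its DMSO arrays, a pattern that no other member and 0.607% of all genes had. The mean difference was 0.50 (SE 0.10, 1.42-fold, adjusted p = 0.0878), and it ranged between 0.31 in IkL/L MDPs and 0.73 in WT MDPs. On leaving out 1 array the mean difference ran from 0.41 to 0.59. The value of 0.59 was without replicate 2 of the WT MDP DMSO arrays, the higher of the pair.

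Ddit3, the CHOP factor that Atf4 activates and that is known for promoting cell death under lasting stress, had a mean difference of 0.34 (SE 0.08, 1.27-fold, adjusted p = 0.127). On the GSI arrays it was 7.29 and 7.01 in IkL/L CDPs, 6.79 and 6.76 in WT CDPs, 6.68 and 6.76 in IkL/L MDPs and 6.85 and 6.64 in WT MDPs. On the DMSO arrays it was 6.59 and 6.86 in IkL/L CDPs, 6.53 and 6.37 in WT CDPs, 6.43 and 6.75 in IkL/L MDPs and 6.45 and 6.07 in WT MDPs. The arrays overlapped in IkL/L MDPs only, where the difference was 0.13 (SE 0.16), and each of the 8 GSI arrays lay above the DMSO mean of its population. For this pattern over the 8 GSI arrays, here and below, the share of all genes was not counted. Eif2ak3, the PERK kinase itself, had a difference of 0.08 (SE 0.07, 95% interval -0.08 to 0.25, adjusted p = 0.709), and 5 of its 8 GSI arrays lay above the DMSO mean of their population.

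Ern1, the gene of the IRE1α sensor, was the member with GSI values below DMSO values. It read 6.47 and 6.25 with GSI in IkL/L CDPs, against 6.57 and 6.62 with DMSO, and 7.21 and 6.26 with GSI in WT CDPs, against 7.30 and 7.15 with DMSO. In IkL/L MDPs it read 7.09 and 6.78 with GSI, against 7.52 and 7.49 with DMSO, and in WT MDPs 7.70 and 7.32 with GSI, against 8.42 and 7.92 with DMSO. None of the 8 GSI arrays lay above the DMSO mean of its population, and only in WT CDPs did the arrays overlap. The shares of all genes with these downward patterns were not counted. The mean difference was -0.49 (SE 0.14, 0.713-fold, adjusted p = 0.192). On leaving out 1 array it ran from -0.61, without replicate 1 of the WT CDP GSI arrays, to -0.37.

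Xbp1, whose mRNA IRE1α splices, had a difference of 0.14 (SE 0.06, adjusted p = 0.425), with 0.04 in IkL/L CDPs and 0.29 in WT MDPs as its extremes. Dnajb9, an ER co-chaperone known as a target of spliced Xbp1, had a mean difference of 0.24 (SE 0.08, adjusted p = 0.25). Its GSI arrays read 9.35 and 9.22 in IkL/L CDPs, against 8.89 and 8.83 with DMSO, and 9.14 and 9.25 in IkL/L MDPs, against 8.84 and 8.77 with DMSO. In both IkL/L populations the arrays did not overlap, with differences of 0.42 and 0.39 (SE 0.15 each), while in WT CDPs and WT MDPs they overlapped, with differences of 0.12 and 0.03 (SE 0.15 each). The difference between the GSI effects in IkL/L and WT CDPs was 0.30 (SE 0.21, 95% interval -0.17 to 0.78, adjusted p = 1).

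The chaperone Hspa5 read 11.44 and 11.48 with GSI in IkL/L CDPs, against 11.13 and 11.21 with DMSO, and 11.01 and 11.41 with GSI in WT CDPs, against 10.67 and 10.74 with DMSO. In IkL/L MDPs it read 11.26 and 11.26 with GSI, against 10.68 and 11.26 with DMSO, and in WT MDPs 10.96 and 11.42 with GSI, against 10.45 and 10.99 with DMSO. The CDP arrays did not overlap and the MDP arrays did, since replicate 2 of the DMSO arrays was at least as high as a GSI array to 2 decimals in both MDP populations. The mean difference was 0.39 (SE 0.11, 1.31-fold, adjusted p = 0.222), and all 8 GSI arrays lay above the DMSO mean of their population. Hsp90b1 (GRP94), the HSP90 chaperone of the ER, showed the same overlaps with a smaller difference of 0.24 (SE 0.10, adjusted p = 0.403), from 0.17 in IkL/L MDPs to 0.33 in WT CDPs. Herpud1, a membrane component of ER-associated degradation, and the sensor Atf6 had differences of 0.12 (SE 0.09, adjusted p = 0.665) and 0.10 (SE 0.08, adjusted p = 0.667). For Herpud1 the largest difference was 0.28 (SE 0.18) in WT MDPs, and for Atf6 it was 0.22 (SE 0.15) in WT CDPs.

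**Figure D2:**
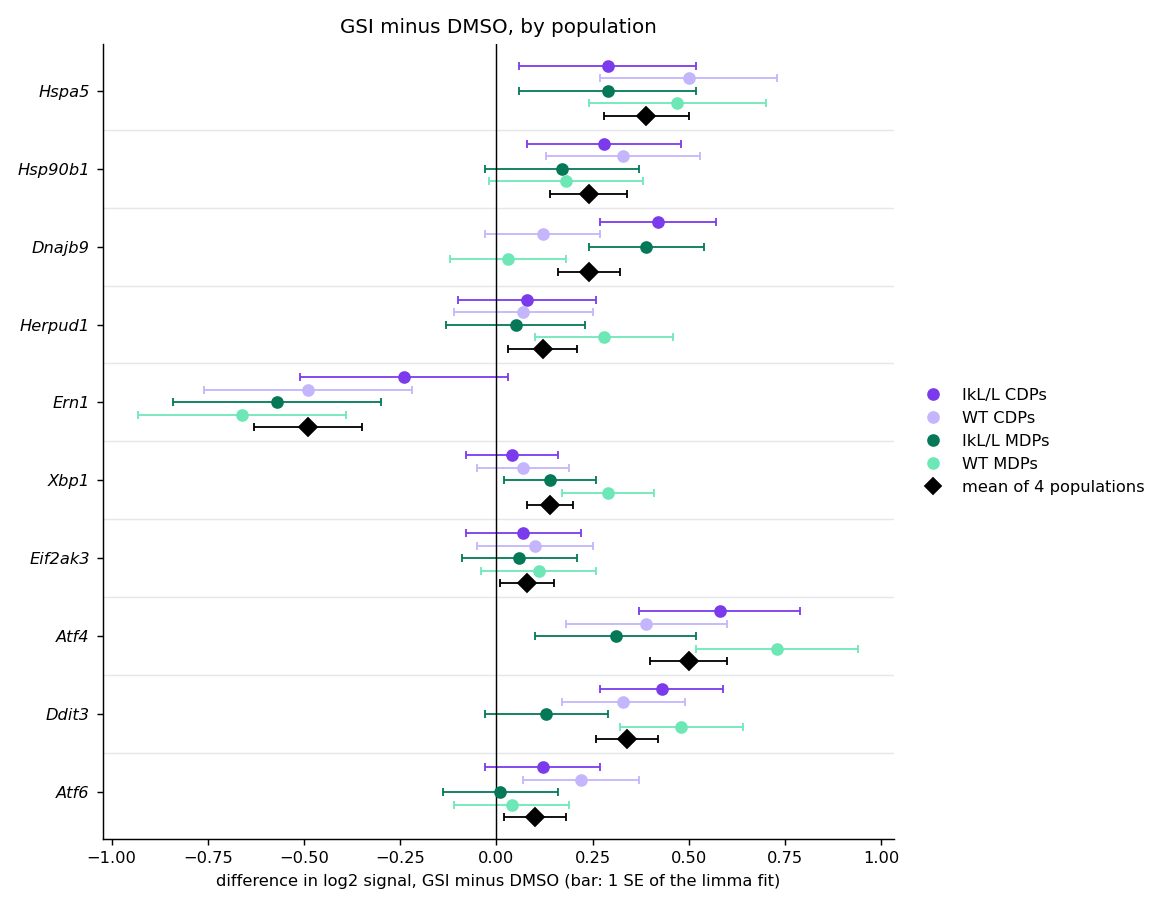
Difference in log2 signal between GSI and DMSO (x axis) for each of the 10 genes (rows) in the 4 populations (circles) and in their mean (diamonds), with bars of 1 SE of the limma fit. The means run between -0.49 for Ern1 and 0.50 for Atf4, and none of the 50 values passed the test over all genes.

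Genes around the 10 members were followed in 4 lists, chosen by function with earlier results of these data known. Of 20 ER chaperones and folding enzymes, 4 rose with GSI in the mean of the 4 populations and 0 fell, 18 had a positive difference, and the median difference was 0.35 beside 0.01 over all genes. Of 19 measured genes of ER-associated degradation, 1 rose and 0 fell, with a median of 0.15. Of 24 measured ATF4 and CHOP target genes, 1 rose and 0 fell, with a median of 0.18. Of these 24, 19 had a positive and 5 a negative difference, 8 and 1 of them at an unadjusted p under 0.05. The GSI mean lay above the DMSO mean in all 4 populations for 15 of them, and below it in all 4 for 2, Cebpg and Slc7a11. Of 20 measured sensors, proteases and regulators of the pathway, 0 passed at an adjusted p under 0.05 and 5 had an unadjusted p under 0.05, and their median was 0.00. Creb3l2, an ER-anchored transcription factor, had the smallest p of that list (0.31, SE 0.06, adjusted p = 0.0863). In single populations no gene of the 4 lists passed.

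The gene with the smallest p among them was Selenos, a selenoprotein that links the degradation machinery to the ER membrane. It read 9.35 to 9.48 on the 8 GSI arrays, against 8.88 to 9.18 on the 8 DMSO arrays, so that the treatments did not overlap across populations. The difference was 0.41 (SE 0.04, 1.33-fold, adjusted p = 0.00907). Manf, a secreted factor of ER stress that binds BiP, read 9.44 to 9.68 with GSI, against 8.76 to 9.35 with DMSO, again with no overlap (0.46, SE 0.07, adjusted p = 0.0342). These 2 genes are described because they passed the test on the same arrays, so their separation by treatment is not further evidence. The share of all genes separated in this way was not counted.

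Dnajc3, the BiP co-chaperone whose promoter is given above, read 10.30 to 10.65 with GSI, against 9.81 to 10.37 with DMSO (0.46, SE 0.08, adjusted p = 0.0466). Pdia5, a protein disulfide isomerase, read 6.43 to 7.28 with GSI, against 5.15 to 6.49 with DMSO (0.87, SE 0.15, 1.83-fold, adjusted p = 0.0491). Chac1, a glutathione-degrading enzyme and ATF4 target, read 4.90 to 5.21 with GSI, against 4.39 to 4.91 with DMSO (0.39, SE 0.05, adjusted p = 0.0218). Chac1 was dim, with DMSO values on both sides of the median signals of the arrays, and no detection call was used. P4hb, the abundant disulfide isomerase and the fourth chaperone that rose, was named after its values were seen (0.37, SE 0.06, adjusted p = 0.0338). In each population the GSI arrays of these 4 genes lay above the DMSO arrays, as for 0.607% of all genes, and the overlaps arose between populations. These 4 genes too are described because they passed on the same arrays, so their separation is not further evidence. Leaving out single arrays raised the adjusted p of Pdia5 to at most 0.142, of Dnajc3 to 0.139, of Manf to 0.118, of P4hb to 0.111, of Chac1 to 0.0966 and of Selenos to 0.0538, the last without replicate 2 of the IkL/L CDP DMSO arrays.

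**Figure D3:**
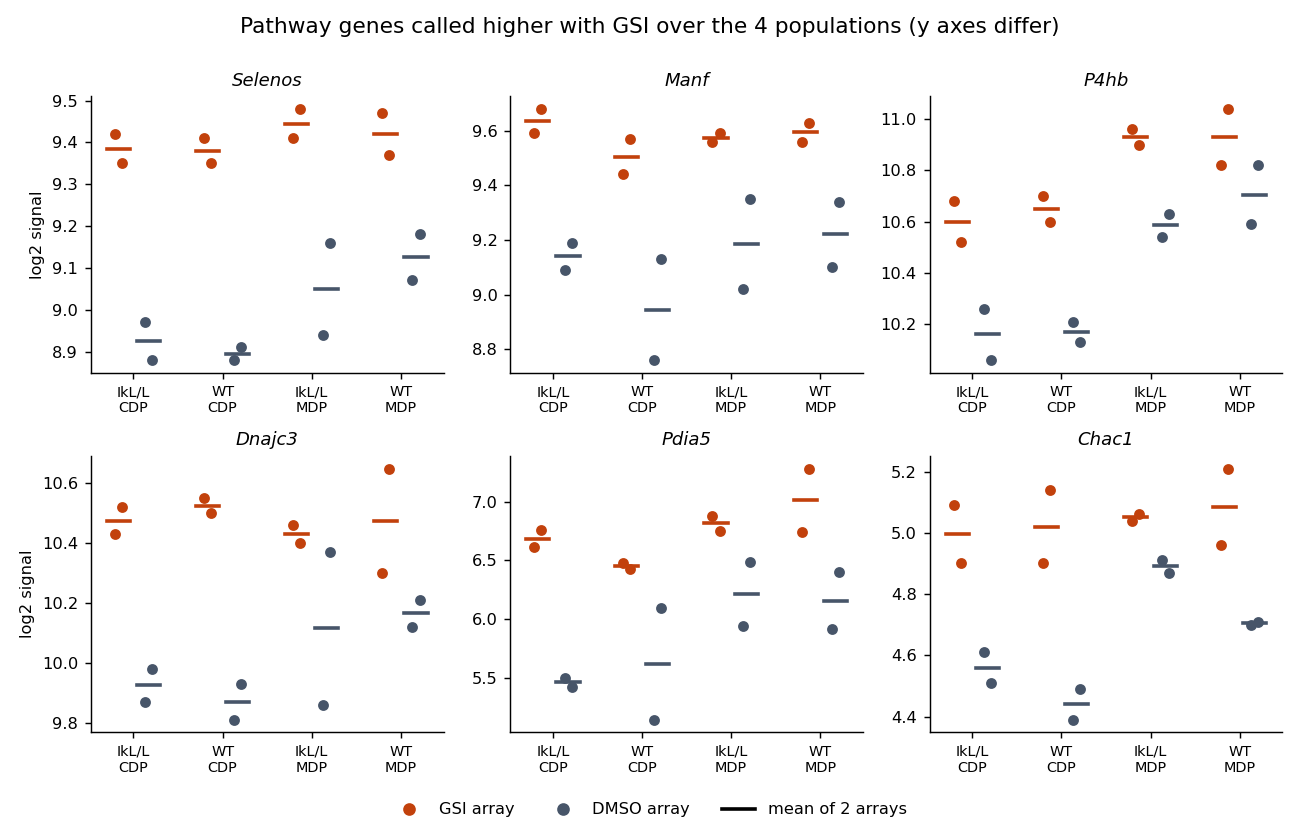
Log2 signal (y axis, own range per gene) of the 6 pathway genes that passed the test in the mean of the 4 populations, on each GSI and DMSO array of each population (x axis), with lines for the mean of 2 arrays. For Selenos and Manf all 8 GSI arrays lie above all 8 DMSO arrays.

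**Figure D4:**
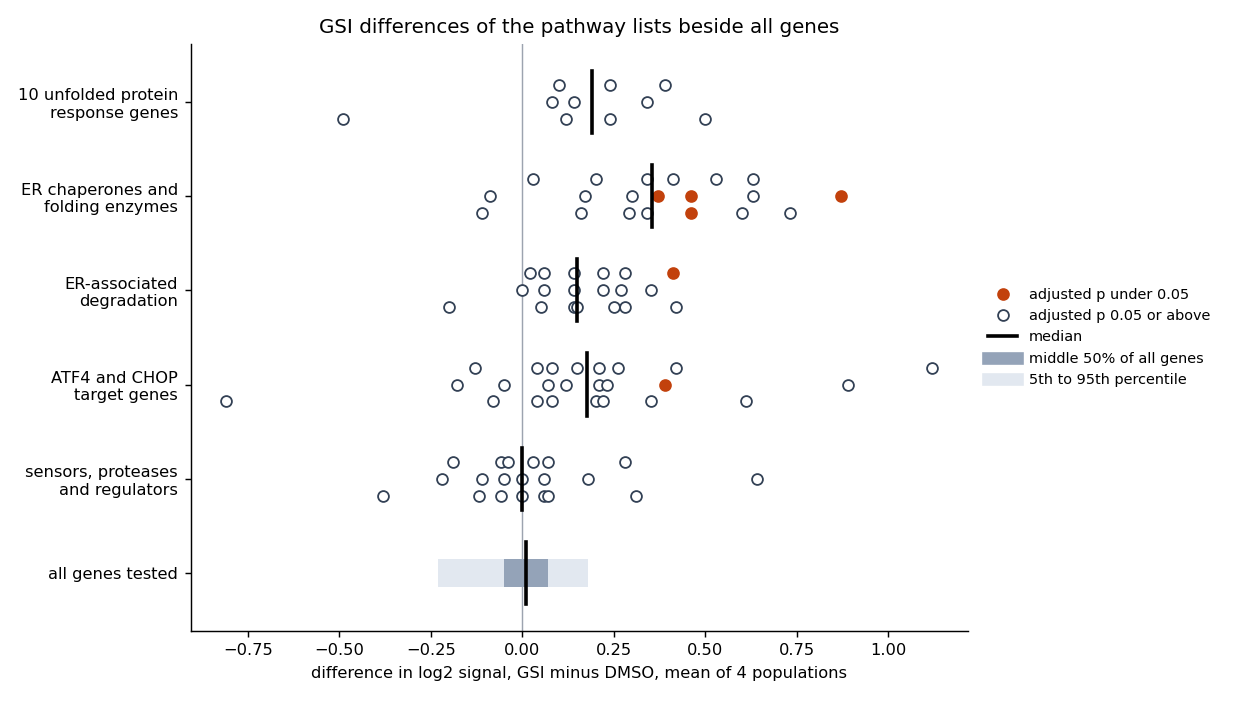
Difference in log2 signal between GSI and DMSO in the mean of the 4 populations (x axis) for each gene of the 5 lists (rows, 1 circle a gene, filled where the adjusted p was under 0.05), with black lines for medians and bars for all 19938 genes. The median is 0.35 for chaperones and folding enzymes and 0.00 for the sensors, beside 0.01 for all genes.

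Markers of the progenitors themselves were read on the same arrays. The mean log2 signal of 6 of them (Flt3, Csf1r, Kit, Cx3cr1, Irf8 and Cd34) was 7.93 to 8.65 on the GSI arrays, against 8.72 to 9.24 on the DMSO arrays, and all 6 had a negative difference with GSI, with a median of -0.65. Of the 6, Cx3cr1 passed the test in the mean of the 4 populations (-1.34, SE 0.17, adjusted p = 0.0199), 3 had an unadjusted p under 0.05, and 0 passed in a single population. All 6 markers of mast cells and basophils had a negative difference in each of the 4 populations, with a median of -0.53 in their mean, 0 of them passing and 2 at an unadjusted p under 0.05. Of 10 neutrophil markers 9 had a negative difference in the mean (median -0.13) and all 10 in IkL/L CDPs (median -0.34), and 0 passed. Markers of plasma cells, a type known for a large ER, were dim on all arrays (4.37 to 4.83 as the mean of 7 genes), and their median difference with GSI was -0.03. The part of the progenitor, mast cell and neutrophil markers in the GSI values above was not tested.

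The next question was whether the Ikaros mutation changed these genes in CDPs. Dnajb9 rose in IkL/L CDPs and was the 1 member of 10 that passed, where 1023 of all genes did (5.13%, 641 higher and 382 lower). It read 9.35 and 9.22 with GSI and 8.89 and 8.83 with DMSO in IkL/L CDPs, against 8.74 and 8.51 with GSI and 8.24 and 8.77 with DMSO in WT CDPs. The genotypes did not overlap, as was the case for 11.1% of all genes and for no other member. The difference was 0.51 (SE 0.11, 1.42-fold, adjusted p = 0.0201), with 0.66 on the GSI arrays (adjusted p = 0.0537) and 0.36 on the DMSO arrays (adjusted p = 0.48). The call was lost without replicate 1 of the IkL/L CDP GSI arrays (adjusted p = 0.0765), replicate 1 (0.0738) or 2 (0.0556) of the IkL/L CDP DMSO arrays or replicate 2 of the WT CDP GSI arrays (0.0658), and in a fit of the CDP arrays alone (0.112).

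Herpud1 read 8.98 and 9.17 with GSI and 8.79 and 9.19 with DMSO in IkL/L CDPs, against 8.31 and 8.84 with GSI and 8.60 and 8.42 with DMSO in WT CDPs. The 2 genotypes overlapped by 1 array, and the difference was 0.49 (SE 0.13, adjusted p = 0.0622). On leaving out 1 array the difference ran from 0.36 to 0.62, the latter without replicate 2 of the WT CDP GSI arrays. The differences of Hspa5 (0.36, SE 0.16, adjusted p = 0.318) and Ddit3 (0.32, SE 0.11, adjusted p = 0.173) were positive, and those of the sensors Ern1 (-0.50, SE 0.19, adjusted p = 0.215), Atf6 (-0.27, SE 0.11, adjusted p = 0.238) and Eif2ak3 (-0.18, SE 0.10, adjusted p = 0.513) were negative. Hsp90b1, Xbp1 and Atf4 lay between -0.07 and 0.12. Over the 10 members the median was 0.11, beside -0.02 for all genes.

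In the pathway lists, 0 chaperones, 0 genes of ER-associated degradation and 0 ATF4 and CHOP targets passed between IkL/L and WT CDPs, where 5, 4 and 3 had an unadjusted p under 0.05, beside 3064 of all genes. Calr, the calcium-binding lectin chaperone, had the smallest p of the chaperones (0.40, SE 0.12, adjusted p = 0.11). Of the regulators 3 rose in IkL/L CDPs and 0 fell. They were Pmaip1 (Noxa), a BH3-only activator of cell death (1.19, SE 0.15, 2.29-fold, adjusted p = 0.00118), Creb3, an ER-anchored transcription factor (0.55, SE 0.13, adjusted p = 0.0353), and Tmbim6, an ER membrane protein known as Bax inhibitor 1 (0.45, SE 0.11, adjusted p = 0.041). On the DMSO arrays alone and on the GSI arrays alone, only Pmaip1 of the regulators passed. Whether these calls held on leaving out single arrays was not followed.

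Genes of other cell types differed between the same arrays. The mean log2 signal of 10 neutrophil markers was 9.84 to 11.16 on IkL/L CDP arrays, against 7.94 to 8.58 on WT CDP arrays, and 9 of 10 rose. That of 7 markers of mature DCs was 8.56 to 9.16 on IkL/L CDP arrays, against 5.65 to 6.22 on WT CDP arrays, and 6 of 7 rose. Of 9 markers of conventional DCs (cDCs) 1 rose, while 7 were higher and 0 lower at an unadjusted p under 0.05, with a median of 0.74. Their mean was 8.29 to 8.78 on IkL/L CDP arrays, against 7.58 to 8.31 on WT CDP arrays. Of 6 markers of plasmacytoid DCs (pDCs) 1 rose, with 2 higher and 1 lower at an unadjusted p under 0.05. Their mean was 7.16 to 7.39 on IkL/L CDP arrays, against 6.56 to 7.80 on WT CDP arrays. Of 6 mast cell and basophil markers 3 rose, with means of 5.68 to 7.45 on IkL/L CDP arrays, against 4.59 to 5.85 on WT CDP arrays. Of 7 plasma cell markers none passed, at 4.61 to 4.83 on IkL/L CDP arrays, against 4.39 to 4.64 on WT CDP arrays, and 2 had an unadjusted p under 0.05. The part of these cell types in the values of Dnajb9, Herpud1 and the regulators was not tested.

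In MDPs 0 of the 10 members passed between IkL/L and WT, where 119 of all genes did (0.597%). All 3 sensors were lower in mean in IkL/L MDPs at an unadjusted p under 0.05, a threshold that 1754 of the 19938 genes passed in either direction. Atf6 read 7.90 to 8.22 on the 4 IkL/L MDP arrays, against 8.46 to 8.53 on the 4 WT MDP arrays. Its genotypes did not overlap (-0.42, SE 0.11, 0.748-fold, adjusted p = 0.178), and the difference ran from -0.50 to -0.34 on leaving out 1 array. Eif2ak3 did not overlap either (-0.29, SE 0.10, adjusted p = 0.432), and the share of all genes without overlap was 6.11%. Ern1 had the largest difference (-0.62, SE 0.19, adjusted p = 0.301), but IkL/L MDPs with DMSO overlapped WT MDPs with GSI. The other members lay between -0.05 and 0.23, with Dnajb9 the highest (SE 0.11). The median over the 10 members was -0.01, and -0.09 to 0.10 on leaving out 1 array. No gene of the 4 pathway lists passed, and 0, 0, 0 and 2 of them were higher and 1, 1, 0 and 3 lower at an unadjusted p under 0.05. Of 10 neutrophil markers 4 rose in IkL/L MDPs, with means of 9.49 to 10.16 on IkL/L MDP arrays, against 8.06 to 8.40 on WT MDP arrays. Of 9 cDC markers 4 rose as well, the MHC class II genes Cd74, H2-Aa, H2-Ab1 and H2-Eb1, and the mean of the 9 was 6.83 to 7.56 on IkL/L MDP arrays, against 4.92 to 5.41 on WT MDP arrays. The part of these markers in the values of the members was not tested.

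The last question was whether the genes differed between the 2 stages. In IkL/L cells Ern1 fell in CDPs, the 1 of 10 members that passed, where 1345 of all genes did (6.75%). It read 6.47 and 6.25 with GSI and 6.57 and 6.62 with DMSO in IkL/L CDPs, against 7.09 and 6.78 with GSI and 7.52 and 7.49 with DMSO in IkL/L MDPs. The stages did not overlap, and the difference was -0.74 (SE 0.19, 0.598-fold, adjusted p = 0.0456). The call was lost in 10 of the 16 fits without 1 array, namely any of the 8 IkL/L arrays or either WT CDP DMSO array, at an adjusted p of at most 0.174. It was lost after quantile normalization as well (0.0692), while the DMSO arrays alone gave -0.91 (0.167) and the GSI arrays alone -0.58 (0.454).

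Atf6 and Herpud1 were on the other side, with IkL/L CDP arrays above IkL/L MDP arrays without overlap. Atf6 read 8.49 and 8.47 with GSI and 8.33 and 8.39 with DMSO in IkL/L CDPs, against 7.90 to 8.22 on the 4 IkL/L MDP arrays (0.36, SE 0.11, adjusted p = 0.0808). Herpud1 read 8.98 and 9.17 with GSI and 8.79 and 9.19 with DMSO in IkL/L CDPs, against 8.60 and 8.62 with GSI and 8.52 and 8.60 with DMSO in IkL/L MDPs (0.45, SE 0.13, adjusted p = 0.0712). Together with Ern1 these were 3 of 10 members without overlap, beside 16.4% of all genes. Both Atf6 and Herpud1 passed in a fit of the IkL/L arrays alone (adjusted p of 0.0378 and 0.0329). On leaving out 1 array the difference ran from 0.28 to 0.44 for Atf6 and from 0.35 to 0.55 for Herpud1.

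In WT cells 0 of 10 members passed between CDPs and MDPs, where 166 of all genes did (0.833%). Ern1 read 7.21 and 6.26 with GSI and 7.30 and 7.15 with DMSO in WT CDPs, against 7.70 and 7.32 with GSI and 8.42 and 7.92 with DMSO in WT MDPs. Again its stages did not overlap, and the difference was -0.86 (SE 0.19, 0.550-fold, adjusted p = 0.0765). On leaving out 1 array it ran from -1.10, without replicate 1 of the WT CDP GSI arrays, to -0.63. Xbp1 was the other member without overlap, with 8.10 to 8.29 in WT CDPs, against 8.31 to 8.83 in WT MDPs (-0.31, SE 0.08, 0.805-fold, adjusted p = 0.144). The share of all genes without overlap was 4.48%. Between the same arrays 5 of 9 cDC markers rose in WT CDPs, at a mean of 7.58 to 8.31, against 4.92 to 5.41 in WT MDPs, and 3 of 6 pDC markers rose, at 6.56 to 7.80 in WT CDPs, against 5.56 to 5.81 in WT MDPs. Their part in the values of Ern1 and Xbp1 was not tested. For Ern1 the stage difference in IkL/L minus that in WT was 0.12 (SE 0.27, 95% interval -0.48 to 0.72, adjusted p = 0.999).

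**Figure D5:**
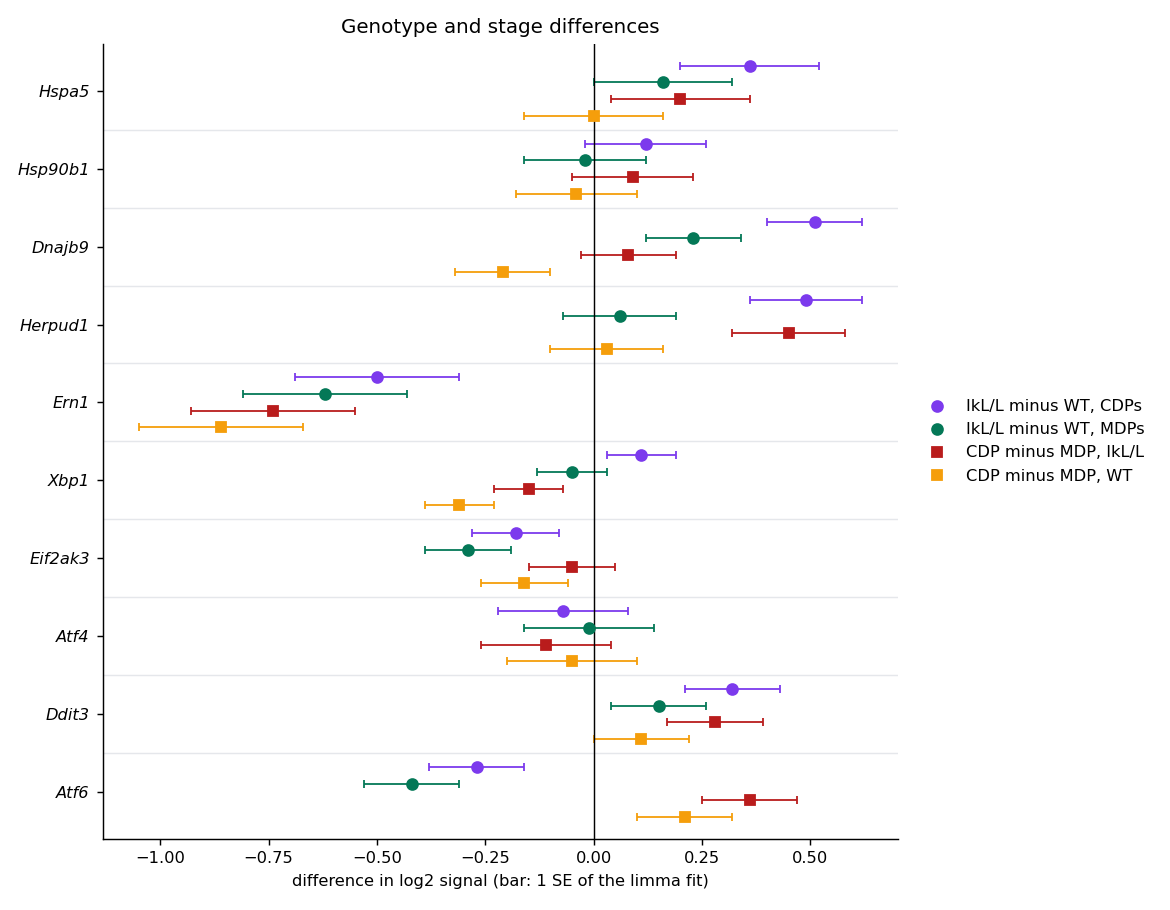
Differences in log2 signal (x axis) of the 10 genes (rows) between IkL/L and WT at each stage (circles) and between CDPs and MDPs in each genotype (squares), each the mean of the GSI and DMSO differences, with bars of 1 SE of the limma fit. Dnajb9 between IkL/L and WT CDPs (0.51) and Ern1 between IkL/L CDPs and MDPs (-0.74) are the 2 values that passed.

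Around them, 3 chaperones and folding enzymes fell in IkL/L CDPs relative to IkL/L MDPs and 0 rose: Ero1a, the oxidase that renews disulfide isomerases (-0.78, SE 0.13, adjusted p = 0.00511), Txndc5 (-0.62, SE 0.16, adjusted p = 0.0474) and P4hb (-0.38, SE 0.08, adjusted p = 0.0176), both disulfide isomerases. Among ATF4 and CHOP targets 2 rose, Slc3a2, the heavy chain of amino acid transporters (0.59, SE 0.15, adjusted p = 0.0432), and Ppp1r15a (GADD34), which reverses the phosphorylation by PERK (0.58, SE 0.14, adjusted p = 0.0304). In that list 2 fell, Psat1, an enzyme of serine synthesis (-0.93, SE 0.23, adjusted p = 0.04), and Eif4ebp1, a repressor of translation that was named after its values were seen (-0.34, SE 0.08, adjusted p = 0.0242). Of the regulators Pmaip1 (1.50, SE 0.15, 2.82-fold, adjusted p = 0.000231) and Traf2, a partner of IRE1α in signalling (0.45, SE 0.10, adjusted p = 0.0211), rose and Creb3l2 fell (-0.40, SE 0.09, adjusted p = 0.0261). In ER-associated degradation 0 passed and 3 had an unadjusted p under 0.05 (3524 of all genes), with Edem2 the smallest p (-0.45, SE 0.12, adjusted p = 0.0531). All 7 markers of mature DCs rose between the same arrays, at 8.56 to 9.16 in IkL/L CDPs, against 5.26 to 5.77 in IkL/L MDPs, as did 7 of 9 cDC markers, at 8.29 to 8.78 in IkL/L CDPs, against 6.83 to 7.56 in IkL/L MDPs, and 5 of 6 pDC markers, at 7.16 to 7.39 in IkL/L CDPs, against 5.56 to 6.08 in IkL/L MDPs. The part of these markers in the stage values was not tested. In WT cells no gene of the 4 lists passed between the stages, and P4hb came closest (-0.40, SE 0.08, adjusted p = 0.0512). Whether the stage calls of list genes held on leaving out single arrays was not followed.

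Neither test of an interaction called a member. The genotype difference in CDPs minus that in MDPs was positive for 9 of the 10, with a median of 0.15 beside -0.01 for all genes, and 112 genes passed (0.562%). Of the mature DC markers 5 of 7 were called with a positive term and of the cDC markers 4 of 9 with a negative one, and their part in the members' values was not tested. Herpud1 had the largest value (0.42, SE 0.18, 95% interval 0.02 to 0.83, adjusted p = 0.74). For the GSI effect in IkL/L CDPs minus that in WT CDPs 0 genes passed (0%) and 286 had an unadjusted p under 0.05, none of them a member. The median over the members was 0.00, and their intervals reached as far as 0.83 for Atf4 and 1.10 for Ern1, and down to -0.93 for Hspa5, so differences of that size between the genotypes lay within the error of these arrays.

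Across the 16 arrays the members did not vary as 1 block. Hspa5 and Hsp90b1 varied together (Pearson r = 0.87), Hspa5 with Atf4 and with Herpud1 less closely (r = 0.68 and 0.67), and Xbp1 and Atf6 not with Hspa5 (r = 0.12 and -0.01). Ern1 ran against Herpud1 (r = -0.76) and Hspa5 (r = -0.72). The genes outside the 10 whose signal was most like that of Hspa5 were Calr (r = 0.97), Sdf2l1 (0.96), Pdia6 (0.95), Hyou1 (0.95) and Psmc5 (0.95), the first 4 of them genes of ER folding and the last a subunit of the proteasome. Those most like Ddit3 were Rnf19b (r = 0.90), Ido1 (0.90), Rab3il1 (0.88), Baiap2 (0.84) and Slc12a7 (0.83). These correlations are descriptions over 16 arrays that share genotype, stage and treatment, and they carry no test.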

How the data were processed

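Affymetrix Gene ST 1.0 arrays of 16 samples (8 groups of 2) were read from the deposited table, which holds log2 signals that the authors made from the scans with RMA in Affymetrix Expression Console 1.4.1. Labelled targets had been amplified by the authors from 0.69 to 20 ng of total RNA, which can add noise for dim genes, and values between 2.5528 and 13.459 were used as deposited. A detection call per probe set was not used here, and precision is limited by having 2 arrays a group. Of 28188 probe sets, 21789 carried 1 gene symbol, 1621 several and 4778 none in the platform annotation. Probe sets with 1 symbol were kept, and for a gene with several the one with the highest mean, which left 19938 genes.

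All 8 groups entered 1 fit of group means with limma 3.58.1 in R 4.3.3 (8 residual degrees of freedom, 2.349 prior ones), and p-values were adjusted by Benjamini-Hochberg over all genes, two-sided. Genotype and stage differences are means of the GSI and DMSO differences, and SE is that of the fit. Because the groups share 1 estimate of the spread, leaving out an array of another group can move a call. The fit was tested on simulated data. Members and lists were chosen with earlier results of these data known. Named were all members, and of each list up to 3 passing genes with the largest difference or else the gene with the smallest p. Of the listed genes 4 were matched under newer symbols and 10 had no probe set of their own. Replicate numbers were checked for pairing (28 pairs of groups, correlation of deviations -0.25 to 0.66, median 0.14, 17 of them above 0.1), and they were not taken as pairs. Alternatives were a fit of the compared arrays, the replicate number as a block, another prior, a filter on dim genes, quantile normalization, the mean of probe sets, each treatment alone, and leaving out each array. Single genes of the 4 lists were followed under these alternatives only for the mean GSI difference, and only those called there.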

Additional observations from a re-analysis of the deposited data

How the results depend on the processing

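No value of a member that passed changed sign under any alternative. Of 1170 alternative values of single members in the genotype, stage and mean GSI comparisons, 30 had the other sign than the reported value, in 12 results of at most 0.15 in size, all of genotype or stage and none passing. The median over the 10 members moved by less than 1 SE of a member in all 250 alternative values, but on leaving out 1 array it ran from -0.01 to 0.26 for GSI in IkL/L MDPs, 0.09 to 0.30 in WT MDPs, 0.15 to 0.31 in IkL/L CDPs and 0.12 to 0.23 in WT CDPs, and it crossed 0 between IkL/L and WT MDPs (-0.09 to 0.10), between WT stages (-0.16 to 0.02) and for GSI by genotype (-0.03 to 0.09). Of the 4 single-population GSI comparisons and the 2 interactions, 0 members passed as reported and under every alternative run. For the mean of the 4 populations 0 members passed, and 0 to 1 on leaving out 1 array. Between IkL/L and WT CDPs 1 member passed, against 0 in a fit of the compared arrays, on DMSO arrays alone and on GSI arrays alone, 2 among genes above the median signal (Herpud1 added), and 0 to 2 on leaving out 1 array. Between IkL/L and WT MDPs it was 0, and 0 to 1 without 1 array. Between CDPs and MDPs of IkL/L it was 1, against 3 in a fit of the compared arrays, 0 after quantile normalization, 0 on DMSO arrays alone, 0 on GSI arrays alone and 0 to 2 without 1 array. Between WT CDPs and MDPs it was 0, against 1 (Ern1) with a trended and robust prior (adjusted p = 0.0496), 1 among genes above the median signal (adjusted p = 0.0423) and 0 to 1 without 1 array. With the replicate block, 2 members passed between IkL/L and WT CDPs (Dnajb9 and Herpud1), 2 between CDPs and MDPs of IkL/L (Ern1 and Herpud1) and 1 between WT CDPs and MDPs (Ern1, adjusted p = 0.0165), and no other count of members changed. The replicate block raised the count over all genes to 176, against 61 without it, for the mean GSI difference, to 6 against 1 in IkL/L CDPs, to 5 against 2 in WT CDPs, to 309 against 166 for WT stages and to 181 against 119 for IkL/L and WT MDPs. The cause of these shifts was not tested.

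In a fit of the compared arrays 626 genes passed between IkL/L and WT CDPs (1023 as reported), 2129 between IkL/L stages (1345), 19 between WT stages (166) and 0 for GSI in either CDP population (1 and 2). On DMSO arrays alone the counts were 235, 21, 340, 19 and 21 for the 2 genotype comparisons in CDPs and MDPs, the stage comparisons in IkL/L and WT and the genotype by stage term, and on GSI arrays alone 428, 23, 482, 35 and 46, where fewer arrays enter each difference. The trended prior gave 12 genes for GSI in IkL/L CDPs, 1 in WT CDPs and 1 for GSI by genotype, the filter 3 in IkL/L CDPs, and quantile normalization 1 in WT CDPs. Leaving out 1 array gave 0 to 85 genes for the mean GSI difference, with 0 without replicate 2 of the IkL/L CDP DMSO arrays, 5 without either IkL/L MDP GSI array, and 8, 8, 10 and 17 without replicate 1 of the WT MDP DMSO arrays, replicate 1 of the IkL/L CDP DMSO arrays, replicate 2 of the IkL/L CDP GSI arrays and replicate 1 of the IkL/L MDP DMSO arrays, and 30 and 35 without replicate 1 of the WT MDP GSI arrays and replicate 2 of the WT MDP DMSO arrays. In the same fits the counts ran from 0 to 18 for GSI in IkL/L CDPs, 0 to 6 in WT CDPs, 0 to 59 in WT MDPs, 617 to 1097 and 35 to 284 for genotype in CDPs and MDPs, 710 to 1448 and 67 to 316 for stage in IkL/L and WT, and 67 to 146 for genotype by stage. Of the pathway genes called with GSI, Pdia5 and Dnajc3 each lost the call in 14 of 16 such fits, Manf and P4hb in 11, Chac1 in 8 and Selenos in 1. A fit of the compared arrays could not be set apart for the mean of the 4 populations and for the genotype by stage term, which use all groups.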
